A study of Mus musculus with 15 samples.

Results

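The set described here comprised 35 mouse nuclear receptor genes, none of them a retinoic acid or retinoid X receptor, among 21887 protein-coding genes. It does not hold every gene of the superfamily. Its members were chosen by name, and the peaks of the merged ATAC-seq peak list that overlapped a member's gene record or lay within 20 kb of it were assigned to it. ATAC-seq uses a transposase that inserts adapters into open DNA, so the number of reads in a peak measures how accessible that stretch was. Of 67945 peaks, 224 were assigned to 33 members, and Pgr (progesterone receptor) and Esrrg (estrogen-related receptor gamma) had none. Each library came from 50000 tumour cells sorted from a subcutaneous tumour in a C57BL/6 mouse, 3 weeks after a clonal mouse pancreatic tumour cell line had been implanted, with no treatment. The clones were labelled by the T cell content of their tumours. The T cell high group held 6 clones (7160c2, 6620c1, 6555c3, 6499c4, 6421c2 and 2838c3), and the T cell low group held 7 (6694c2, 6556c3, 6499c3, 6422c1, 6419c5, 6419c1 and 2699c4). A group is therefore a set of single clones with 1 library each. The spread within a group joins differences between clones, tumours and library preparations, which cannot be told apart. The comparison asks whether the chromatin of the tumour cells themselves differs between tumours rich and poor in T cells.

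Nuclear receptors are transcription factors that share a zinc finger DNA-binding domain and a ligand-binding domain. Steroid receptors bind DNA as homodimers after their hormone has bound, most lipid, thyroid hormone and vitamin D sensors pair with a retinoid X receptor, and several orphan members bind as monomers or act without a known ligand. Without ligand, or with repressive partners, many recruit NCOR corepressors, and with ligand they recruit p160 coactivators and histone acetyltransferases. In the pancreas, Nr5a2 is known as a factor of acinar cell identity, and the glucocorticoid, vitamin D and peroxisome proliferator-activated receptors are studied in pancreatic tumours and their stroma.

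Open sites assigned to these genes lay mostly inside the genes, where the whole gene record was searched but only 20 kb on each side. The same share over all genes is not given here. A link is 1 peak assigned to 1 gene, and of 233 links 124 were to peaks in the gene record outside its promoters, 23 to peaks on a promoter (250 bases before to 50 bases after an annotated start), 38 to peaks upstream and 35 to peaks downstream. For the other 13 links no strand was at hand. Nr3c1, Nr5a1 and Thra had no reference promoter, so none of their peaks could be counted as on a promoter. The members with a peak had a median of 5 peaks each, against 4 over the 17165 protein-coding genes with a peak. The mineralocorticoid receptor gene Nr3c2 had the most, 25. Of 32 members with a RefSeq promoter, 22 (68.75%) had a peak on it, against 9699 of 17492 genes (55.4%) overall. Assignment was not exclusive, since 88 of the 224 peaks also lay within 20 kb of another protein-coding gene. Nr1d1 and Thra, which overlap on chromosome 11, shared 8 peaks, and Nr5a1 and Nr6a1 shared 1.

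The promoter sequences of 7 sites are shown because the accessibility data bear on them. They are the 250 bases before the annotated start, from RefSeq on GRCm38.p6 (the assembly that mm10 represents), written 5′ to 3′ on the gene's strand. Capitals mark matches, on either strand, to 5 short motifs. These are AGGTCA, the core that most nuclear receptors bind, AGAACA, the core bound by glucocorticoid receptors, TGANTCA, the AP-1 site, TGACG, the core of the cyclic AMP response element, and GGGCGG, the GC box. A match on the other strand appears as the reverse complement, and matches may overlap. The first 3 belong to the NR4A genes, each of which had a peak on its promoter.
Nr4a1 chr15:101266596-101266845, + strand: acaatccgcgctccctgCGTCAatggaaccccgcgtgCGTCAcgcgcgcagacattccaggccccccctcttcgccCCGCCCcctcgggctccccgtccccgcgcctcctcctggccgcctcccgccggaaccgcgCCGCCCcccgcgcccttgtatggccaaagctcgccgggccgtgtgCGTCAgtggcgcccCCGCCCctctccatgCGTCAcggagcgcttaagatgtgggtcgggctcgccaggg
Nr4a2 chr2:57124004-57124253, − strand: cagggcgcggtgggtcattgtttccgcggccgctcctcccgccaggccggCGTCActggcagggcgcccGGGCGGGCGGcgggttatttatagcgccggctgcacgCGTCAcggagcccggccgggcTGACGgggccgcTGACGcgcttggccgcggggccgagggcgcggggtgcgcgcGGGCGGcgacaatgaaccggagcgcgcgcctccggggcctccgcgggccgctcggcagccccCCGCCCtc
Nr4a3 chr4:48045055-48045304, + strand: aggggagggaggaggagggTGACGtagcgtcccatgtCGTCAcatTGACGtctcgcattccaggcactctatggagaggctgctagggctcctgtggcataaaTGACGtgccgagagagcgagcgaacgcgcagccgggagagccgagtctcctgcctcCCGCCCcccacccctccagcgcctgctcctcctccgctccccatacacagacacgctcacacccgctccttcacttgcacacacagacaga
The next belongs to Nr3c2, whose promoter peak had the highest accessibility per kb of all member peaks.
Nr3c2 chr8:76902080-76902329, + strand: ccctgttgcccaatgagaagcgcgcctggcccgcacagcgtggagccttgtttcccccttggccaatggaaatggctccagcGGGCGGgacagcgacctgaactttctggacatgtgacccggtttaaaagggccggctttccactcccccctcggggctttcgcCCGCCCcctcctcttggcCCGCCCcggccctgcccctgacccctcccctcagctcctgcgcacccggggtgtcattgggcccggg
A further pair are open promoters of Pparg that differ in base composition.
Pparg chr6:115360894-115361143, + strand: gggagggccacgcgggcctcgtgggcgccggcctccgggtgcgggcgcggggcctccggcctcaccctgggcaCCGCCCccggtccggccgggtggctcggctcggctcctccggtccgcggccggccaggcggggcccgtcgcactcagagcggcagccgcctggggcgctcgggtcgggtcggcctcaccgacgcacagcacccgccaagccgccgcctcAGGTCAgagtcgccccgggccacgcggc
Pparg chr6:115421816-115422065, + strand: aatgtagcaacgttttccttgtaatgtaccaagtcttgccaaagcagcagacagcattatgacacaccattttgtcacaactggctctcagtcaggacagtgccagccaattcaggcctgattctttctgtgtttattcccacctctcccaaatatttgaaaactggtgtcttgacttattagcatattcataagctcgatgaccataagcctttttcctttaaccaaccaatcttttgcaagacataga
The last is the open promoter of Nr2f1, a member with a large spread between clones.
Nr2f1 chr13:78198874-78199123, − strand: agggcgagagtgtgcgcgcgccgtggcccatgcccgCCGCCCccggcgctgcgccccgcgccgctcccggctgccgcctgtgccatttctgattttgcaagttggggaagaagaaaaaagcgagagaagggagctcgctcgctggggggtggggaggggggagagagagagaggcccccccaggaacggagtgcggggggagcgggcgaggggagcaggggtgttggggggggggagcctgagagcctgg

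Each of the 3 NR4A promoters held 4 matches to TGACG within the 300 bases from 250 before to 50 after the start. Of 21263 promoters of that length, 69 (0.325%) held 4 or more, and among the 45 promoters of members only these 3 did. At least 1 TGACG was found in 13 of the 45 member promoters and in 23.6% of all promoters. The core AGGTCA was found in 7 of 45 and in 14.7% of all, AGAACA in 5 and in 16.2%, TGANTCA in 3 and in 6.99%, and GGGCGG in 19 and in 46.2%. The 25 member promoters with a peak had a median GC content of 64.7%, against 51.7% for the 20 without. Over all promoters the medians were 62.0% and 49.0%. The Pparg promoter at 115421816 was open with a GC content of 40.3%, and the one at 115360894 was open with a GC content of 80.3%. These letter matches describe the sequence and no factor was measured at them.

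Levels are given as CPM, the reads of a peak scaled to a common total of reads in peaks per library after normalization by the trimmed mean of M-values (TMM). The summed CPM of all peaks of a gene is called its window sum. Reads in peaks ran from 968296 (7160c2) to 7369228 (6419c1) per library. No 2 libraries had equal counts at more than 7.38% of peaks, so none was a copy of another. Reads were counted without molecular identifiers, so counting limits given below cover counting error only. In sorted bulk cells, fewer cells with an open site and a less open site in every cell cannot be told apart. Per kb of peak, the mean level over the 13 clones was highest at the Nr3c2 promoter (117.9 CPM per kb), followed by a peak downstream of Nr2f6 that also lies near 4 other genes, Myo9b, Use1, Ocel1 and Ushbp1, (99.3 CPM per kb) and by the promoter of Nr1d2 (95.6 CPM per kb). Summed over a gene's peaks, CPM per kb of peak was highest at Nr1d2 (60.5) and Nr1i3 (58.5) and lowest at Nr5a2 (8.32), Rora (8.63), Nr5a1 (8.67) and Esr2 (8.77). Both peaks of Nr1i3 lay outside its gene record and also within 20 kb of other genes, and 1 of them gave 93.5% of its level.

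**Figure D1:**
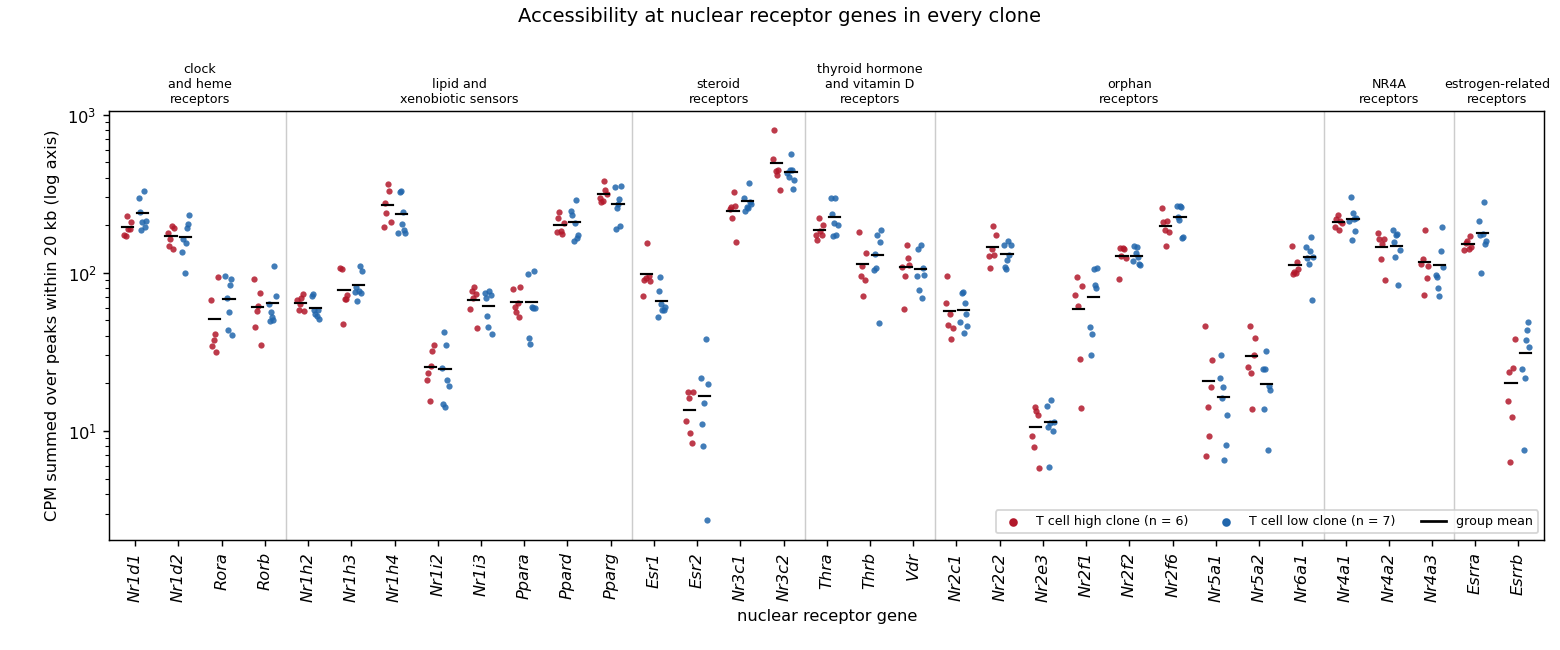
Window sums (CPM of all peaks within 20 kb of the gene, log axis) of the 33 members with a peak, by role group; each point is 1 clone, red for T cell high (n = 6) and blue for T cell low (n = 7), and black dashes are group means. The red and blue points overlap at every gene.

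In the comparison of the 2 classes of clones, 0 of the 33 window sums and 0 of the 204 tested member peaks passed the test (edgeR's quasi-likelihood F-test, Benjamini-Hochberg adjusted over all features, threshold 0.05). The share called over the genome was 0.0119% of 16824 gene windows (2 of them, Pdzrn3 and Skint6) and 0.0% of 59252 peaks. The lowest adjusted p among members was 0.620 for windows and 0.608 for peaks. At an unadjusted p under 0.05 there were 11 of 204 member peaks (5.39%), 8 higher in T cell high (3.86% of all peaks were) and 3 lower (2.97% of all), against 6.83% of all peaks in either direction. For windows the same count was 1 of 33 (3.03%), Esr1, against 6.63% of all genes. Of all genes 2.82% had such a p and, like Esr1, were higher in T cell high. These shares lie near or under the background and are no result about the receptors. DESeq2 called 0 member peaks (0.0793% of all) and 0 member windows (0.0654% of all), with 11 member peaks (7.79% of all) and 1 member window (7.42% of all) at an unadjusted p under 0.05. The corresponding counts for limma-voom were 0 and 0 (0.0% of all for both), and 16 member peaks (8.52% of all) and 2 member windows (7.12% of all). All 33 windows passed the filter on low counts, while 20 of the 224 peaks did not, with mean levels of 0.936 to 4.70 CPM.

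Every log2 fold change given has the T cell low group as its denominator. The window values ran from -0.66 (Esrrb) to 0.57 (Esr1), 14 above 0 and 19 below, with 44.0% of all windows above 0. Their median was -0.04, against -0.03 over all gene windows. The sign turned in at least 1 fit that left out 1 clone at 15 of the 33 windows, among them Esr2 and Nr5a1, while the other 13 had values between -0.10 and 0.06 with all clones. The 204 peaks divided into 102 above and 102 below 0 (51.3% of all peaks were above), with a median of 0.01 in the members and 0.01 over all peaks. The groups did not overlap at 0 of 33 windows (0.19% of all windows) and at 1 of 204 peaks (0.162% of all peaks). On data simulated from these libraries, the test called 77.2% of windows changed 2-fold and 100% of those changed 4-fold (16721 windows tested), and 18.9% and 79.1% of peaks (55998 tested). The simulated spread followed the trend over all features, not the spread of each gene. These shares therefore do not apply to members that varied more, such as Esrrb, Nr2f1, Esr2 and Nr5a1. At a single peak of ordinary spread, a change of about 2-fold would mostly not have been detectable.

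**Figure D2:**
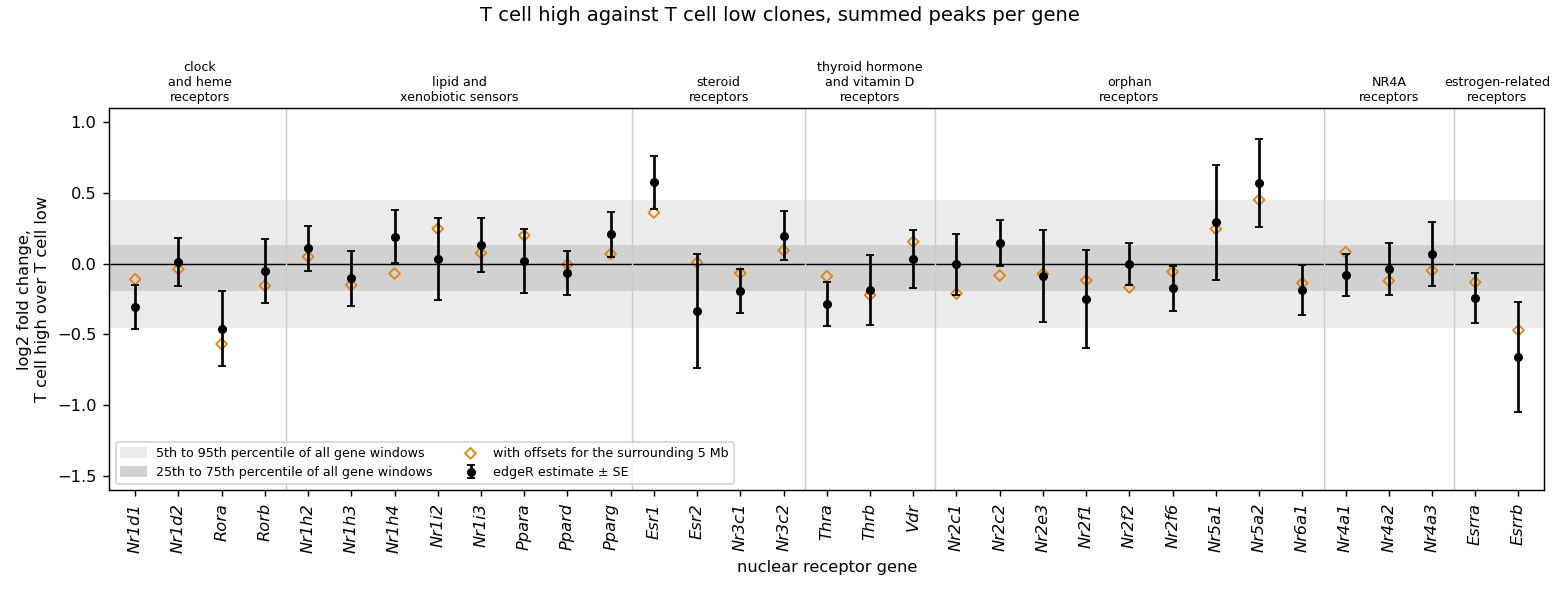
Log2 fold change of the window sum, positive where T cell high was higher, with its SE (black) for 33 genes; grey bands are percentiles of all 16824 gene windows, and open diamonds are the same fit with each clone offset by the median deviation of the peaks within 5 Mb. The members past the band from the 5th to the 95th percentile are Esr1 and Nr5a2 above it and Rora and Esrrb below it, and none of them passed the test.

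Nr1d1 and Nr1d2 encode the REV-ERB receptors, heme-binding repressors of the circadian clock, and Rora and Rorb encode receptors that bind the same elements as activators. None of the 4 windows passed the test, 1 having a log2 fold change above 0 and 3 below. At Nr1d1 (chr11:98767932-98775377) the lowest, median and highest sums were 170.4, 188.9 and 230.4 CPM in T cell high and 186.2, 213.0 and 328.1 CPM in T cell low. The groups overlapped, with 5 of the 6 T cell high clones below the T cell low median and 6499c3 and 2699c4 above all others. The fitted log2 fold change was -0.31 (SE 0.15, adjusted p = 0.748, edgeR). In the same 2 clones the median deviation of the peaks within 5 Mb was 0.40 and 0.35 above their mean over clones on the log2 scale, and with each clone offset by that deviation (neighbourhood offsets) the value was -0.11.

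At Rora (chr9:68653404-69388246) the sums were 31.6, 39.3 and 94.4 CPM in T cell high and 40.4, 69.5 and 95.2 CPM in T cell low. Of the T cell high clones 4 lay between 31.6 and 41.1 CPM, and 7160c2 and 2838c3 lay among the T cell low clones. The highest of those 4, 6555c3, was just above the lowest T cell low clone, 6694c2 (40.4 CPM). edgeR put the log2 fold change at -0.46 (SE 0.26, adjusted p = 0.759). It was -0.57 with the neighbourhood offsets, -0.70 without 7160c2 and -0.30 with a window of 50 kb. Of its 8 peaks 7 lay inside the gene, and none on its reference promoter. Nr1d2 and Rorb had log2 fold changes of 0.01 and -0.05, and both turned sign in fits without 1 clone.

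The lipid and xenobiotic sensors are the oxysterol receptors Nr1h2 and Nr1h3, the bile acid receptor Nr1h4, the xenobiotic receptors Nr1i2 and Nr1i3, and the fatty acid receptors Ppara, Ppard and Pparg. None of the 8 windows passed, with 6 above and 2 below 0 and values from -0.10 to 0.21. Pparg (chr6:115360879-115490404), the regulator of fat cell differentiation, had sums of 279.7, 306.8 and 379.9 CPM in T cell high and 190.1, 270.8 and 351.7 CPM in T cell low. Apart from 6555c3, the highest of all, the T cell high clones filled a narrow range inside the wider one of the other group. Its log2 fold change was 0.21 (SE 0.16, adjusted p = 0.813, edgeR). It was 0.12 without 6419c1, 0.13 without 6555c3, 0.14 without 6556c3 and 0.07 with the neighbourhood offsets. Of its 15 tested peaks 12 had values above 0 and 3 below.

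One Pparg peak was among the 8 member peaks with the smallest p. It lies inside the gene (chr6:115397410-115397997) and had 1.55, 13.2 and 19.5 CPM in T cell high against 0.70, 3.22 and 11.5 CPM in T cell low. Of the 6 T cell high clones, 7160c2, 6555c3 and 6620c1 were above all T cell low clones, and the other 3 were among them. On the log2 scale the fold change was 1.26 (SE 0.57, adjusted p = 0.713, edgeR). The open Pparg promoters had values of -0.05 (at 115360894) and -0.09 (at 115421816), and both turned sign in fits without 1 clone.

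A peak 14478 bp downstream of Nr1h4 (chr10:89439389-89439756), also near Gas2l3, was another of these 8. It had 8.27, 10.9 and 21.2 CPM in T cell high and 1.82, 6.03 and 10.7 CPM in T cell low, so that the lowest T cell high clones overlapped the highest T cell low ones. The fitted log2 fold change was 0.93 (SE 0.38, adjusted p = 0.691, edgeR). Ppard and Nr1h2 varied little between clones. Ppard sums were 176.6, 194.5 and 241.1 CPM in T cell high and 158.9, 207.5 and 288.9 CPM in T cell low, and Nr1h2 sums were 57.4, 65.3 and 73.3 CPM and 50.7, 58.0 and 73.4 CPM. At Ppard the T cell high clones lay inside the range of the T cell low clones, and at Nr1h2 they filled the upper part of it.

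The steroid receptors are Esr1 and Esr2, which bind estrogen, the glucocorticoid receptor Nr3c1 and the mineralocorticoid receptor Nr3c2. None of the 4 tested windows passed, with 2 above and 2 below 0. With the neighbourhood offsets, the values given below for Nr3c2, Nr3c1 and Esr2 became 0.09, -0.07 and 0.01. Esr1 (chr10:4611989-5005633) had the smallest p of all member windows. Its sums were 71.3, 91.3 and 154.9 CPM in T cell high and 52.7, 60.9 and 93.9 CPM in T cell low. The T cell low clones 6419c1 and 6419c5, which share a first number in their names, reached into the T cell high range, the other 5 lay under all T cell high clones, and 6555c3 stood above all clones. The log2 fold change was 0.57 (SE 0.19, adjusted p = 0.620, edgeR), and 0.36 with the neighbourhood offsets. In 6555c3 the window was 0.98 above the mean of the 13 clones on the log2 scale, and its neighbourhood 0.18 above.

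Esr1 had no peak on its 2 reference promoters, and 6 of its 8 tested peaks had values above 0. The peak with the smallest p lay inside the gene (chr10:4781770-4782782), with 3.33, 11.03 and 14.7 CPM in T cell high and 0.00, 3.90 and 9.12 CPM in T cell low. Of the T cell high clones 4 were above all T cell low clones, 2838c3 and 6421c2 were among them, and 6556c3 had no read, which allows up to 2.73 CPM (3 reads) in that library. Its log2 fold change was 1.39 (SE 0.49, adjusted p = 0.621, edgeR). The Esr1 peak with the most reads (chr10:4620713-4621669) had 38.7 CPM on average in T cell high and 28.6 in T cell low, with the log2 fold change at 0.42 (SE 0.23), and 0.22 with the neighbourhood offsets.

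**Figure D3:**
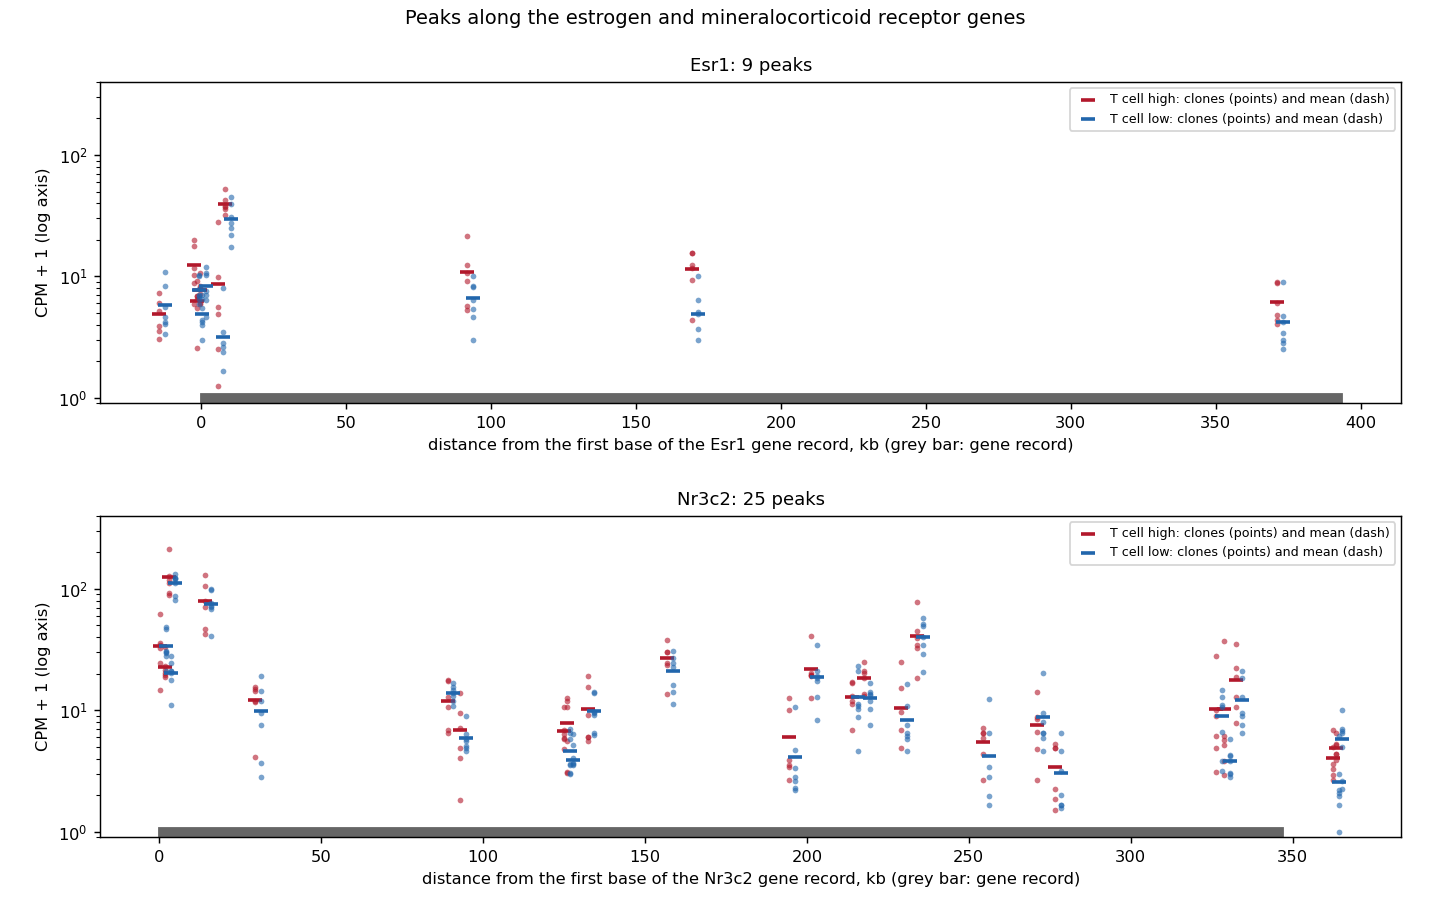
CPM + 1 (log axis) of the peaks of Esr1 (top, 9 peaks) and Nr3c2 (bottom, 25 peaks) by distance in kb from the first base of the gene record; points are clones, dashes are group means, and the grey bar is the gene. The Nr3c2 promoter peak reaches 212 CPM in the T cell high clone 6421c2, and at most peaks the points of both groups overlap.

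Nr3c2 (chr8:76898083-77245012) had 25 peaks, 22 of them inside the gene apart from its promoter, and window sums of 331.9, 444.8 and 800.4 CPM in T cell high and 339.8, 427.5 and 564.2 CPM in T cell low. The clone 6421c2 was far above all others, and the remaining clones of both groups covered nearly the same range. edgeR put the log2 fold change at 0.20 (SE 0.17, adjusted p = 0.853), and at 0.0048 without 6421c2. In 6421c2, 11 of the 25 peaks were at their highest of all clones, the window was 0.84 above its mean on the log2 scale, and the peaks within 5 Mb were 0.51 above theirs. The promoter peak ran from 80.5 to 212.2 CPM over the clones, with the log2 fold change at 0.17 (SE 0.20), and 0.03 with the neighbourhood offsets. A second peak with many reads (chr8:76912479-76913571) ran from 40.1 to 128.4 CPM.

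Of the 8 member peaks with the smallest p, 3 lay inside Nr3c2. The first (chr8:77227731-77228131) rested on 1 library: 6421c2 had 36.3 CPM from 120 reads, the other T cell high clones had 1.95 to 5.18 CPM, and the T cell low clones had 1.82, 2.79 and 4.83 CPM. Its log2 fold change was 1.72 (SE 0.58, adjusted p = 0.608, edgeR), and 1.12 by limma-voom. Without 6421c2 the peak did not pass the filter on low counts and was not tested, and the mean of the other 5 T cell high clones was 3.76 ± 1.33 CPM (SD, n = 5), against 2.85 ± 1.06 CPM (SD, n = 7) in T cell low. At the second (chr8:77024512-77025335) the values were 2.07, 7.10 and 11.7 CPM in T cell high and 0.00, 2.65 and 5.37 CPM in T cell low, with the log2 fold change at 1.16 (SE 0.53, adjusted p = 0.713, edgeR). Here 3 T cell high clones were above all T cell low clones and the others were among them, and 6556c3 again had no read. The third (chr8:77116322-77117160) had 12.2, 18.3 and 23.9 CPM against 6.55, 12.3 and 15.7 CPM, and 4 T cell high clones above all T cell low clones. Here the log2 fold change was 0.63 (SE 0.29, adjusted p = 0.713, edgeR).

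The glucocorticoid receptor gene Nr3c1 had sums of 156.7, 257.7 and 323.2 CPM in T cell high and 246.8, 272.1 and 368.0 CPM in T cell low. The low end was 7160c2 and the high end 6499c3, with the groups overlapping in between. On the log2 scale the fold change was -0.19 (SE 0.16, adjusted p = 0.826, edgeR), -0.30 without 6555c3 and -0.11 without 7160c2. A single peak inside the gene gave 51.0% of its mean window sum, with 136.0 CPM on average. No reference promoter of Nr3c1 was at hand, so whether this peak lies on a promoter was not determined. Esr2 had 2 peaks, both upstream of the gene, and sums of 8.43, 13.9 and 17.6 CPM in T cell high and 2.73, 14.9 and 38.3 CPM in T cell low. Both the highest (6499c3) and the lowest (6556c3) clone were T cell low, and the log2 fold change was -0.33 (SE 0.40, adjusted p = 0.899, edgeR), and 0.01 without 6499c3.

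The thyroid hormone receptors Thra and Thrb and the vitamin D receptor Vdr act as partners of retinoid X receptors. None of the 3 passed, with 1 above and 2 below 0. Thra (chr11:98740776-98769006) shares most of its peaks with Nr1d1, so its sums of 162.3, 179.2 and 222.0 CPM in T cell high and 171.2, 206.8 and 298.3 CPM in T cell low are not independent of those of Nr1d1. As there, 6499c3 and 2699c4 lay above all other clones and the groups overlapped. The fitted log2 fold change was -0.28 (SE 0.16, adjusted p = 0.757, edgeR), -0.44 over peaks in the gene record alone and -0.09 with the neighbourhood offsets.

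The 1 member peak at which the groups did not overlap lay inside Thra, in the window of Nr1d1 as well (chr11:98750408-98751807). It had 14.7, 18.9 and 20.15 CPM in T cell high and 20.5, 26.3 and 31.0 CPM in T cell low, so that every T cell low clone lay above every T cell high clone, by a narrow gap. The log2 fold change was -0.50 (SE 0.22, adjusted p = 0.712, edgeR), and -0.31 with the neighbourhood offsets. Thrb and Vdr had log2 fold changes of -0.19 (SE 0.25) and 0.03 (SE 0.21), and -0.22 and 0.15 with the neighbourhood offsets. With 1 clone left out, Thrb ran from -0.37 (without 2838c3) to -0.09 (without 6555c3 or 6694c2), with -0.34 without 6499c3 and -0.10 without 6422c1. Vdr turned sign, from -0.10 (without 6555c3) to 0.16 (without 6421c2). At Thrb the T cell low clone 6499c3 had 48.4 CPM, the lowest of 13, and 7 of its 13 peaks were at their lowest there.

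The orphan receptors of groups 2, 5 and 6 had 3 windows above 0 and 6 below, and none of the 9 passed. Nr5a2 (chr1:136842562-136960448), which encodes the acinar factor LRH-1, had sums of 13.9, 27.8 and 46.3 CPM in T cell high and 7.52, 19.1 and 31.8 CPM in T cell low. The highest clones were 6421c2 and 7160c2 and the lowest 6499c3, with the rest of both groups mixed. edgeR put the log2 fold change at 0.57 (SE 0.31, adjusted p = 0.757), and no peak lay on either of its 2 reference promoters. Nr2f1, a COUP-TF of neural and mesenchymal tissues, had sums of 13.9, 67.3 and 94.2 CPM in T cell high and 30.2, 80.2 and 107.4 CPM in T cell low. The clones divided across the groups, with 6620c1 (T cell high) lowest, followed by 6555c3 at 28.5 CPM and 6419c1 at 30.2 CPM, and with 6694c2 and 6422c1 (both T cell low) highest. Its log2 fold change was -0.25 (SE 0.35, adjusted p = 0.910, edgeR), and -0.12 with the neighbourhood offsets. With 1 clone left out it ran from -0.44 (without 6421c2) and -0.40 (without 6419c1) to -0.05 (without 6620c1), and it was -0.12, -0.12 and -0.13 without 6555c3, 6422c1 and 6694c2.

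Nr2f2, the second COUP-TF, had sums of 91.7, 134.4 and 142.9 CPM in T cell high and 112.8, 126.3 and 148.8 CPM in T cell low. Apart from 2838c3 at the low end, all clones lay within a narrow range, and the fitted log2 fold change was -0.00 (SE 0.15, adjusted p = 0.999, edgeR). Nr5a1, which encodes the steroidogenic factor SF-1, had sums of 6.96, 16.6 and 46.2 CPM in T cell high and 6.54, 16.1 and 30.4 CPM in T cell low. The medians lay close together, and 2838c3 was highest at 3 of its 4 peaks. The fitted log2 fold change was 0.29 (SE 0.41, adjusted p = 0.910, edgeR). It turned to -0.16 without 2838c3. It was 0.47 without 6421c2, 0.52 without 6419c1, 0.19 without 7160c2, 0.18 without 6556c3 and 0.14 without 6499c3. The other members of the class, Nr2c1, Nr2c2, Nr2e3, Nr2f6 and Nr6a1, had log2 fold changes from -0.18 to 0.15. Of these, Nr2c2 had 88.1% of its mean window sum in its promoter peak.

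The NR4A receptors are immediate early genes, transcribed within minutes of growth factor, calcium or cyclic AMP signals, and act without a known hormone. Their promoter peaks, on the sequences printed above with their TGACG matches, had 31.5 (Nr4a1), 40.7 (Nr4a2) and 36.4 (Nr4a3) CPM per kb on average. Over the clones the promoter peaks ran from 23.5 to 50.2, from 18.2 to 63.5 and from 21.2 to 52.5 CPM. Promoter log2 fold changes were -0.16 (SE 0.22), -0.04 (SE 0.25) and 0.16 (SE 0.25), and -0.01, -0.10 and 0.02 with the neighbourhood offsets. The windows had 1 value above and 2 below 0, from -0.08 to 0.06, none passed, and each turned sign in a fit without 1 clone. Nr4a1 (chr15:101253902-101274795) was among the least variable members, with sums of 187.6, 208.5 and 233.5 CPM in T cell high and 160.5, 218.9 and 300.7 CPM in T cell low. The 2 extremes were 6419c1 and 6419c5, and the T cell high clones lay between them.

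At Nr4a3 a peak 17976 bp downstream of the gene (chr4:48104423-48105036), nearer to Stx17, was among the 8 with the smallest p. It had 1.03, 13.98 and 31.5 CPM in T cell high and 0.56, 4.29 and 10.9 CPM in T cell low. Of the T cell high clones 4 were above all T cell low clones, and 2838c3 was next to the lowest of all. On the log2 scale the fold change was 1.30 (SE 0.59, adjusted p = 0.715, edgeR), and 0.84 without 6555c3.

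The estrogen-related receptors bind no estrogen and act with PGC-1 coactivators on genes of mitochondrial metabolism. Both tested windows had values below 0 and neither passed. Esrra (chr19:6910977-6922048) had sums of 139.8, 150.2 and 171.6 CPM in T cell high and 100.4, 173.9 and 279.4 CPM in T cell low. All T cell high clones were close together, while the T cell low group held both the lowest clone (6419c5) and the highest (6499c3). The fitted log2 fold change was -0.24 (SE 0.18, adjusted p = 0.805, edgeR), and -0.11 without 6499c3, -0.13 with the neighbourhood offsets and -0.14 over the gene record alone. Esrrb (chr12:86361117-86521628), known from embryonic stem cells, had 3 peaks inside the gene and sums of 6.31, 19.6 and 38.0 CPM in T cell high and 7.52, 33.8 and 49.2 CPM in T cell low. Its lowest clones were 6499c4 and 6419c1, 1 from each group, and the highest was 6556c3. The log2 fold change was -0.66 (SE 0.39, adjusted p = 0.761, edgeR).

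**Figure D4:**
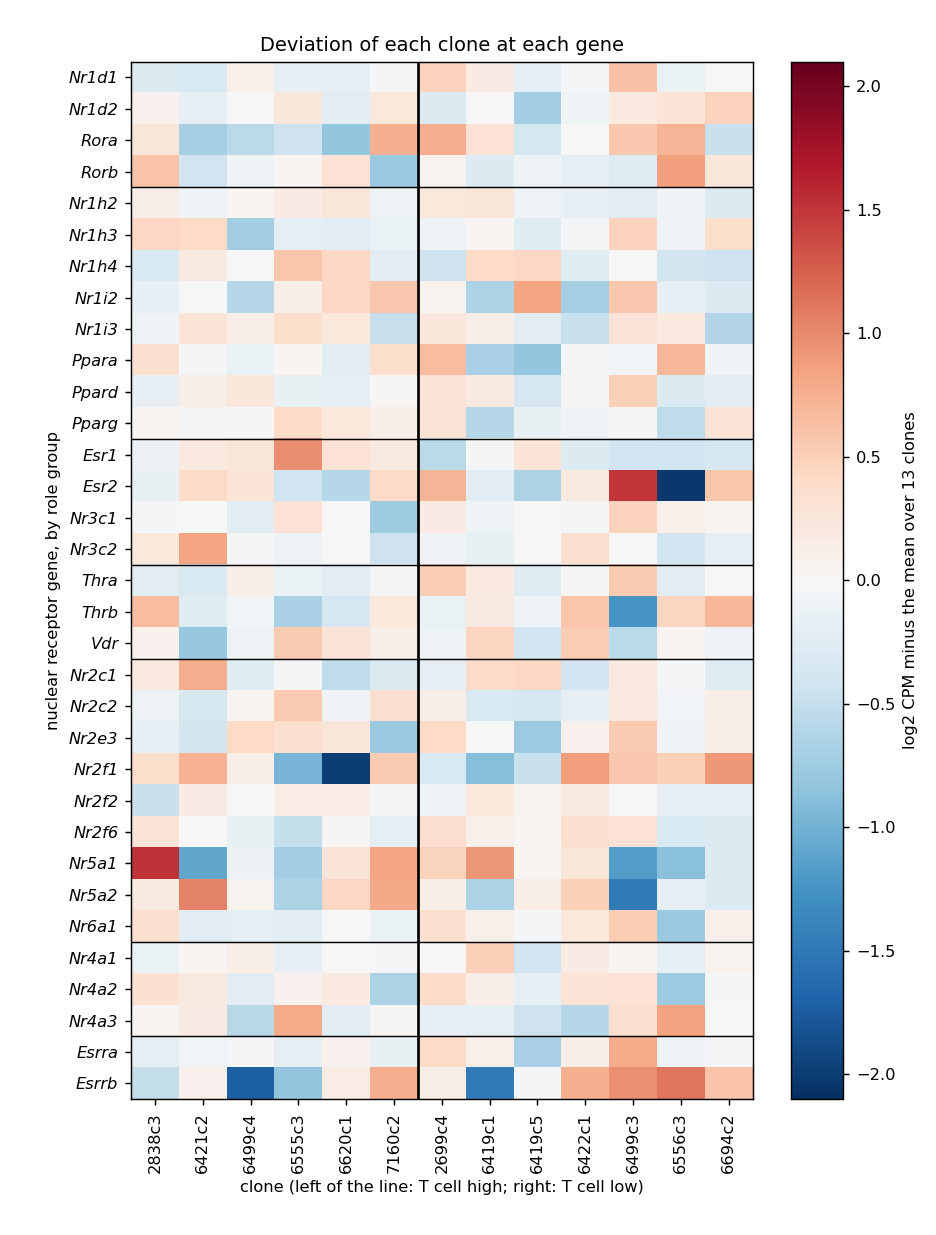
Deviation of each clone (columns, T cell high left of the line) from the mean log2 CPM of 13 clones at each of 33 genes (rows, by role group); red is above and blue below the mean. The darkest cells are single clones at single genes, such as 6620c1 at Nr2f1 and 6556c3 at Esr2, and occur in both groups.

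The SD of log2 CPM of the window sum over the 13 clones had a median of 0.37 in the members and 0.36 over all gene windows, and 4 members lay above the 90th and 3 below the 10th percentile of all genes. The 6 members with the largest SD were Esrrb (0.90), Nr2f1 (0.87), Esr2 (0.85), Nr5a1 (0.83), Nr5a2 (0.67) and Rora (0.59). Counting error alone would give SDs of 0.20, 0.14, 0.33, 0.27, 0.21 and 0.13 at these genes. The 4 with the smallest SD were Nr1h2 (0.18), Nr2f2 (0.20), Nr4a1 (0.22) and Ppard (0.26), where counting error would give 0.12, 0.09, 0.07 and 0.07. Of the 6 variable members, Esrrb, Esr2, Nr5a2 and Rora had no peak on a reference promoter, and no promoter sequence of Nr5a1 was used here. The promoter peak of Nr2f1, on the sequence printed above, ran from 7.17 to 44.8 CPM. Tested promoter peaks of members had a median SD of 0.45 at a median of 32.6 CPM, peaks inside genes 0.68 at 8.55 CPM and flanking peaks 0.58 at 12.3 CPM. Over all tested peaks the medians were 0.43 on promoters and 0.70 elsewhere. Counting error alone would give median SDs of 0.18 at promoter, 0.38 at inside and 0.32 at flanking peaks of members. Over all tested peaks it would give 0.19 on promoters and 0.40 elsewhere. The part of read depth in these differences was not tested.

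**Figure D5:**
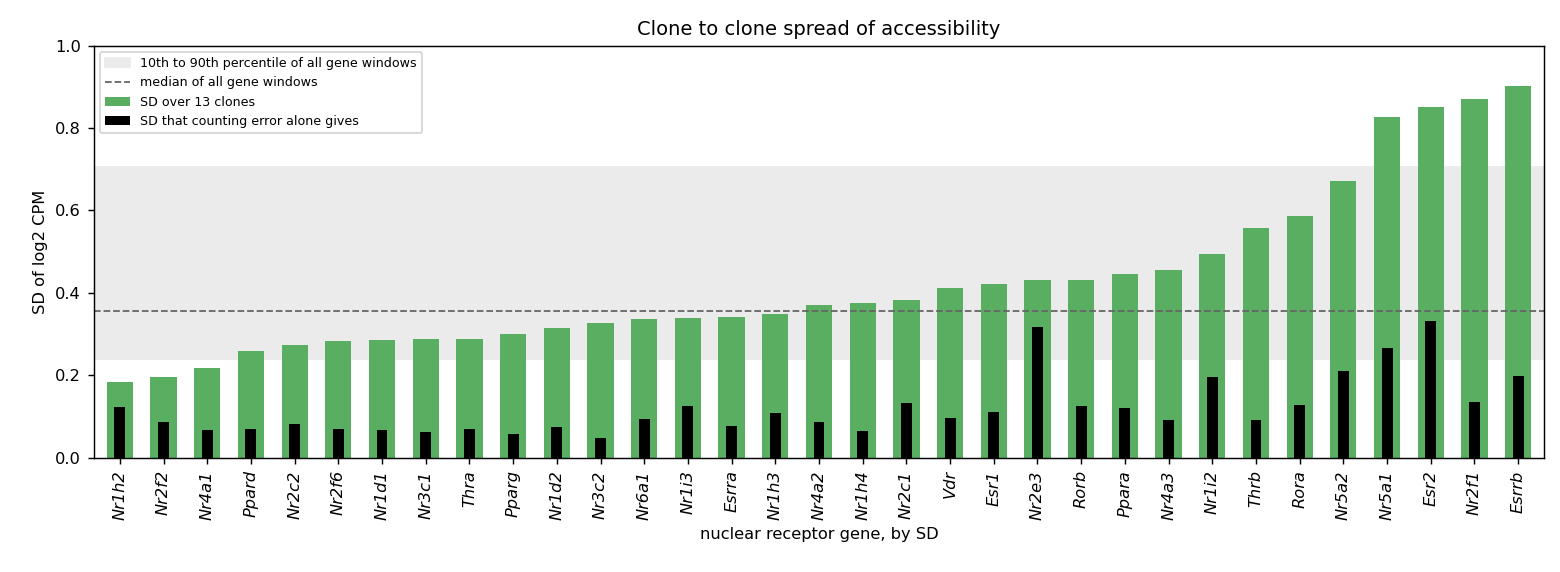
SD over 13 clones of the log2 CPM of the window sum (green bars, left to right in rising order) and the SD that counting error alone would give (black bars); the grey band spans the 10th to 90th percentile of all gene windows and the dashed line is their median (0.36). Esrrb, Nr2f1, Esr2 and Nr5a1 lie above the band, and Nr1h2, Nr2f2 and Nr4a1 lie below it.

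The T cell low clone 6499c3 had the largest median absolute deviation from the mean of the 13 clones over the members, 0.48 on the log2 scale. It was the highest of 13 at 9 members (Nr1d1, Nr1h3, Nr2e3, Nr3c1, Nr6a1, Ppard, Thra, Esr2 and Esrra) and the lowest at 3 (Nr5a1, Nr5a2 and Thrb). Over all gene windows its median deviation was 0.35, also the largest of the 13 clones, so a large deviation was not particular to the members. Counts of highest and lowest clones over all genes are not given here. The T cell high clone 6555c3 was the highest at 6 members (Nr1h4, Nr1i3, Nr2c2, Pparg, Vdr and Esr1), and 6419c5 the lowest at 6. The smallest median deviation, 0.14, was in 6499c4, which also had the smallest over all gene windows (0.18). Some clones share a first number in their names, 6419c1 and 6419c5 within the T cell low group and 6499c3 and 6499c4 across the groups, and the labels do not say whether this marks a shared parent. The median absolute log2 difference over members was 0.37 between 6419c1 and 6419c5 (rank 38 of 78 pairs) and 0.47 between 6499c3 and 6499c4 (rank 65), with a median over all pairs of 0.37, where rank 1 is the most alike pair. Over all gene windows the same pairs had 0.30 (rank 12) and 0.41 (rank 64).

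Coregulators and target genes of the receptors, from lists chosen by name, had 0 windows past the threshold in each list. Of 15 tested coregulator windows 3 had values above 0 and 12 below, with a median of -0.18 beside -0.03 over all genes. Med1, Ep300 and Nrip1, which encode a Mediator subunit, an acetyltransferase and a corepressor, had the lowest p of the list, with log2 fold changes of -0.46, -0.38 and -0.39 (adjusted p = 0.717, 0.737 and 0.739, edgeR). Circadian genes had 5 above and 6 below 0, glucocorticoid targets 2 and 4, LXR targets 3 and 2, PPAR targets 3 and 4, and vitamin D and thyroid hormone targets 2 and 1 each. The 3 retinoid X receptor genes, dimer partners of many members, all had values below 0 with a median of -0.11.

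Marker genes of the tumour epithelium were accessible in every clone, with sums over 8 of 8 markers of 1080 to 1477 CPM in T cell high and 1132 to 1590 CPM in T cell low. Windows of leukocyte markers had 174 to 289 and 197 to 280 CPM (6 of 8 tested, Laptm5 and Cd3e not), those of fibroblast markers 104 to 144 and 129 to 161 CPM (3 of 6, Col1a2, Dcn and Lum not), and those of endothelial markers 52.3 to 90.4 and 39.8 to 96.2 CPM (2 of 4, Cdh5 and Tie1 not). Log2 fold changes above and below 0 numbered 4 and 4 for epithelium, 2 and 4 for leukocytes, 1 and 2 for fibroblasts, and 1 and 1 for endothelium. Epcam and Kdr had the smallest p of these lists. Epcam, an epithelial adhesion molecule, averaged 68.2 ± 36.3 CPM over the 6 T cell high clones (± SD) against 30.1 ± 11.9 over the 7 others. Kdr, an endothelial growth factor receptor, averaged 34.996 ± 10.72 against 21.06 ± 10.98 CPM. Their log2 fold changes were 1.18 and 0.72 (adjusted p = 0.512 and 0.717, edgeR), so neither passed, and both exceeded in size those of all member windows. The summed levels of the groups overlapped for each list, and the part of other cell types in the values above was not tested.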

How the data were processed

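ATAC-seq libraries of 13 clones were used, and 2 further clones of intermediate T cell class were left out. Per the file headers, the authors deposited raw counts of reads per merged peak from featureCounts 1.5.3, run on duplicate-free alignments with no paired-end option, so both ends of a fragment may be counted. The submitters' processing notes name mm10 and DESeq2, with no role stated. Aligner, peak caller and any transposase shift were not given in the sources used here. Each library is a separate clone, so a p-value sets the difference between the groups against the spread within them. That spread joins differences between clones, tumours and library preparations.

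Gene records came from RefSeq tables of GRCm38.p6, which carry no exons, so exonic and intronic positions were not analysed here. Peaks, and counts summed per gene over peaks within 20 kb, were tested with edgeR 4.0.16 in R 4.3.3 (filterByExpr, TMM, two-sided quasi-likelihood F-test, Benjamini-Hochberg at 0.05 over all features). Log2 CPM used a prior count of 2. Alternatives were DESeq2 1.42.0, limma 3.58.1, other scalings, filters and windows, clones left out, 6419c1 and 6419c5 summed, and offsets from peaks within 5 Mb. Scripts were tested on simulated data. Named with values were the 8 windows and 8 peaks with the smallest p, the 6 largest and 4 smallest spreads, and members that lead a role group, added after their values were seen. Members, lists and rules were chosen with earlier results of these data known.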

Additional observations from a re-analysis of the deposited data

Results flagged for a closer look

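A clone stood far from the rest of its group in 6 of the 82 groups of clones looked at (33 windows and 8 peaks in each of the T cell high and T cell low groups), by the gap to its nearest neighbour relative to the group's range. The rule is set so that chance flags about 1 in 20 independent groups. Some groups here share peaks, and the 8 peaks were picked by their p in the same data. That rate is therefore no measure for the 6 flags. The Nr3c2 peak at chr8:77227731 had 36.3 CPM in the T cell high clone 6421c2 against 1.95 to 5.18 in the other 5. The Esr1 window had 154.9 CPM in 6555c3 against 71.3 to 96.1 in the other T cell high clones. At Nr6a1 the T cell high clone 2838c3 had 147.5 CPM against 98.4 to 116.8, and the peaks within 5 Mb deviated in that clone by the same amount as the window (0.34 on the log2 scale). At Nr2f2 the same clone was lowest, with 91.7 CPM against 124.6 to 142.9, while its neighbourhood deviated by -0.02. In the T cell low group, Rorb had 110.2 CPM in 6556c3 against 49.6 to 71.8, and Nr3c1 had 368.0 CPM in 6499c3 against 246.8 to 296.6. None of these was tied to the T cell class by a test.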

How the results depend on the processing

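The count of members past the threshold was 0 in each of 20 alternatives for peaks and 23 for windows, which include every fit that left out 1 clone. At an unadjusted p under 0.05 the alternatives gave 5 to 20 member peaks, beside 5.05% to 10.7% of all peaks, and 1 to 4 member windows, beside 4.21% to 11.01% of all windows. The 20 peaks came from the fit without 2838c3, where 10.7% of all peaks had such a p. The 16 log2 fold changes named by p kept their direction and stayed short of the threshold in the 329 alternative fits that tested them, and the lowest adjusted p was 0.189, for the Esr1 window. A further 12 values for peaks were missing, all at 2 of the Nr3c2 peaks (chr8:77227731 and chr8:77024512), which then failed the filter on low counts. For windows 3 were missing (Nr1d1, Thra and Esrra have only shared peaks). Over the genome, edgeR passed 42 peaks and 13 windows when the clone 2838c3 was left out, none of them at a member. Leaving out 2838c3 and 2699c4 together was an alternative chosen after seeing the data, because these 2 libraries were doubted. It gave 23 and 5, again none at a member. The fit without peaks shared between genes covered 20 members, and the fit on gene records alone 30. No paired analysis was possible because the labels give the clones no replicate numbers, and the groups share only 1 first number in the clone names (6499c4 and 6499c3), so a block on it would rest on that pair alone. Depth limits single peaks most: 3 reads were worth 2.92 CPM in 7160c2 and 0.418 CPM in 6419c1.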
